A study of Capra hircus with 12 samples.

Results

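Desmosomes are the junctions that rivet keratinocytes to each other, and the genes described here encode their parts in the secondary hair follicle of the goat, the follicle that grows cashmere. Members were taken by gene symbol: DSG2, DSG3 and DSG4 (desmogleins), DSC2 and DSC3 (desmocollins), DSP (desmoplakin), PKP1 and PKP3 (plakophilins) and JUP (plakoglobin). Of these 9 symbols, 8 were matched among the 20326 genes measured, and DSC2 is not analysed here. All 8 passed the filter on low values, and the choice went by symbol, not by a measured level. The RNA came from follicles in the skin of goats (Capra hircus) 1.5 years old, with no treatment or genetic change given in the labels. May and September follicles were labelled anagen (growing hair), November and December ones catagen (regressing) and February and March ones telogen (at rest). One male and one female library per month over 6 months make 12 libraries, 4 per stage. The labels do not say whether one animal was sampled in several months, so every p-value below measures the spread between these libraries.

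In a desmosome, desmogleins and desmocollins are cadherins that reach across the gap and bind those of the next cell. Inside the cell, plakoglobin and the plakophilins hold the cadherin tails, and desmoplakin links this plaque to the keratin filaments. The parts are known from hair disorders: in humans and mice, loss of DSG4 gives brittle, short hair, loss of Dsg3 in mice lets resting hairs fall out, and human mutations in JUP or DSP go with woolly hair. The genes of the desmosomal cadherins lie together. In the goat assembly ARS1.2, a run of 11 neighbouring genes opens with DSG2, passes DSG3, DSG4, DSG1 and DSC1, and ends with DSC3. Between DSC1 and DSC3 lies 1 protein-coding gene that has only the symbol LOC102184211 there.

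Of the 8 genes PKP3 changed most over the cycle and was lowest in telogen. PKP1 was lower there too, and DSG3 was higher. The linker DSP was higher in anagen than in telogen, while DSG2, DSG4, DSC3 and JUP passed no stage comparison. All levels below are deposited values from a column headed TPM, which names a per-length scale. Their sums differ between libraries, so they had been rescaled in a way not given here, and ranks and shares across genes hold only if that left the per-length scale intact. Differences are log2 fold changes from limma on log2(value + 1), which understates the change of low genes, and adjusted p-values are Benjamini-Hochberg values over all 16095 genes tested, with 0.05 as the threshold. In bulk RNA, fewer cells of a type and less RNA per cell cannot be told apart.

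**Figure D1:**
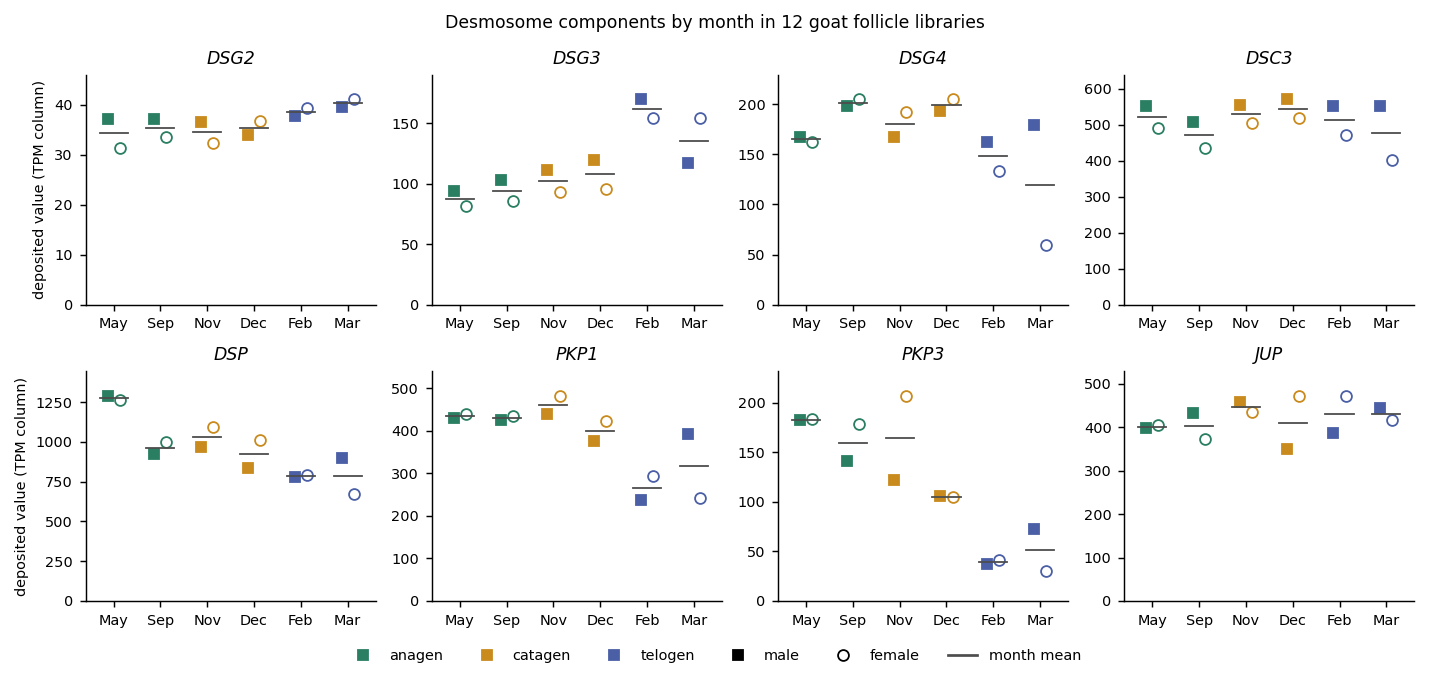
Deposited value (TPM column, linear axis from 0) of the 8 desmosome genes in each of the 12 libraries by month; filled squares are males, open circles females, colours the 3 stages and horizontal lines the mean of the month's 2 libraries. PKP3 stood at 29.9 to 72.25 in the 4 telogen libraries and at 105 to 207 in the other 8, and DSG3 showed the opposite order with 1 telogen library, the March male at 117, inside the catagen range.

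PKP3, a plakophilin of the plaque found in nearly all layers of stratified epithelia, had the widest range of the 8 genes. Its levels were 182 in the May male, 184 in the May female, 141 in the September male, 178 in the September female, 122 in the November male and 207 in the November female. Both December libraries stood at 105, the February male and female at 37.7 and 41.1, and the March male and female at 72.25 and 29.9. All 4 telogen libraries were therefore below every anagen and every catagen library, and the 2 sexes were far apart in November and March. The stage means were 171 ± 20.4 in anagen, 135 ± 48.9 in catagen and 45.2 ± 18.6 in telogen (SD, n = 4 each). PKP3 fell in telogen against catagen, with a log2 fold change of -1.57 (SE 0.255, 95% interval -2.12 to -1.02, adjusted p = 8.51e-04). In anagen against telogen it was higher by 1.97 (SE 0.255, adjusted p = 1.69e-04). Both calls held in 21 of 21 alternative settings.

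PKP1, the plakophilin of upper, differentiating keratinocyte layers whose loss in humans causes skin fragility with sparse hair, was steady through anagen and catagen. Its levels were 431 and 439 in the May male and female, 426 and 436 in the September male and female, 440.3 and 483 in the November male and female, and 377 and 423 in the December male and female. In telogen it stood at 239 in the February male, 295 in the February female, 393 in the March male and 242 in the March female. The March male thus lay inside the catagen range, and the other 3 telogen libraries lay below all the rest. PKP1 fell in telogen against catagen (log2 fold change -0.58, SE 0.153, 95% interval -0.91 to -0.25, adjusted p = 0.00906), with means of 292 ± 72.2 in telogen and 431 ± 44.2 in catagen. Anagen, at 433 ± 5.58, was higher than telogen by 0.60 (SE 0.153, adjusted p = 0.00577), with no overlap between those libraries. Both PKP1 calls also held in 21 of 21 alternatives.

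DSP, which anchors keratin filaments to the plaque and was the most abundant member in all 3 stages, had its highest levels in May. It stood at 1292 and 1262 in the May male and female, 922 and 998 in the September male and female, 967 and 1092 in the November male and female, and 834 and 1014 in the December male and female. Telogen libraries held 778 and 790.4 in the February male and female and 900.0 and 674 in the March male and female. The means were 1118 ± 186 in anagen, 977 ± 108 in catagen and 785 ± 92.6 in telogen. DSP was higher in anagen than in telogen by 0.50 (SE 0.163, 95% interval 0.15 to 0.85, adjusted p = 0.0203), and the libraries of those stages did not overlap. This call was lost in 7 of 21 alternatives, with adjusted p up to 0.213: without the May male, the May female, both of them or the March female, and under quantile normalization, scaling to equal sums or averaged months. Telogen against catagen gave -0.31 (95% interval -0.67 to 0.04, adjusted p = 0.133), with overlapping libraries.

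JUP, the plakoglobin shared by desmosomes and adherens junctions, held a near constant level. Its 12 values ran from 349 in the December male to 473 in the February female, and the means were 402 ± 24.5 in anagen, 428 ± 54.996 in catagen and 431 ± 36.6 in telogen. The log2 fold change was 0.01 in telogen against catagen (95% interval -0.25 to 0.28, adjusted p = 0.937) and -0.10 in anagen against telogen (95% interval -0.37 to 0.17, adjusted p = 0.527). These intervals leave room for changes of about the size seen for DSG2, but not for one of the size of PKP3.

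Among the cadherins, DSG3 moved against the plakophilins. DSG3, the desmoglein of basal keratinocytes and the outer root sheath, stood at 93.9 and 81.7 in the May male and female, 103 and 85.8 in the September male and female, 112 and 93.3 in the November male and female, and 119.7 and 95.85 in the December male and female. The February male and female reached 170.0 and 154, and the March male and female 117 and 154. The male was above the female in 5 of 6 months, March being the exception. DSG3 rose in telogen against catagen by 0.49 (SE 0.130, 95% interval 0.21 to 0.77, adjusted p = 0.00933), with means of 149 ± 22.6 in telogen and 105 ± 12.6 in catagen. Anagen, at 91.0 ± 9.34, lay below telogen (log2 fold change -0.70, SE 0.130, adjusted p = 9.07e-04) with no overlap, and both DSG3 calls held in 21 of 21 alternatives.

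For DSG4, the desmoglein of the hair shaft and its cuticle, the calls turned on the March libraries. Its values were 168 and 162 in the May male and female, 198 and 205 in the September male and female, 168 and 192 in the November male and female, and 193 and 205 in the December male and female. They were 163 and 133 in the February male and female and 179 and 59.1 in the March male and female. The March female was the lowest of the 12 libraries, and the March male lay within the anagen and catagen ranges. Neither telogen against catagen (-0.61, SE 0.265, 95% interval -1.19 to -0.04, adjusted p = 0.0753) nor anagen against telogen (0.56, 95% interval -0.01 to 1.13, adjusted p = 0.0887) passed. Without the March male both passed (-0.79 with adjusted p = 0.0265 for telogen against catagen, and 0.74 with adjusted p = 0.0308 for anagen against telogen), and both also passed with averaged months. Without the March female the same fold changes shrank to -0.26 and 0.21 and did not pass. The summed level of 8 measured hair shaft keratins differed likewise within March, at 1010 in the male and 333 in the female.

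DSC3, the basal desmocollin and the second most abundant member in each stage, did not change detectably with stage. Its values were 553 and 489 in the May male and female, 508 and 436 in the September male and female, 553 and 504 in the November male and female, 570.5 and 518 in the December male and female, 551 and 472 in the February male and female, and 553 and 401 in the March male and female. The male library was above the female in 6 of 6 months, with means of 548 ± 20.8 in males and 469.9 ± 44.2 in females (SD, n = 6 each). The difference of 0.23 (SE 0.091, unadjusted p = 0.0356) did not pass over all genes (limma with month as a block, adjusted p = 0.660). Between stages the log2 fold change was -0.13 in telogen against catagen (95% interval -0.42 to 0.16, adjusted p = 0.458) and 0.01 in anagen against telogen (95% interval -0.28 to 0.30, adjusted p = 0.940).

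DSG2, the desmoglein most widespread in simple epithelia and heart, was the least abundant member in each stage, between 31.3 in the May female and 41.1 in the March female. All 4 telogen libraries, with a mean of 39.4 ± 1.41, lay above all 4 of catagen (34.9 ± 2.08) and of anagen (34.8 ± 2.90). The difference was small and did not pass, at 0.17 in telogen against catagen (95% interval -0.01 to 0.35, adjusted p = 0.109) and -0.18 in anagen against telogen (adjusted p = 0.0875).

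**Figure D2:**
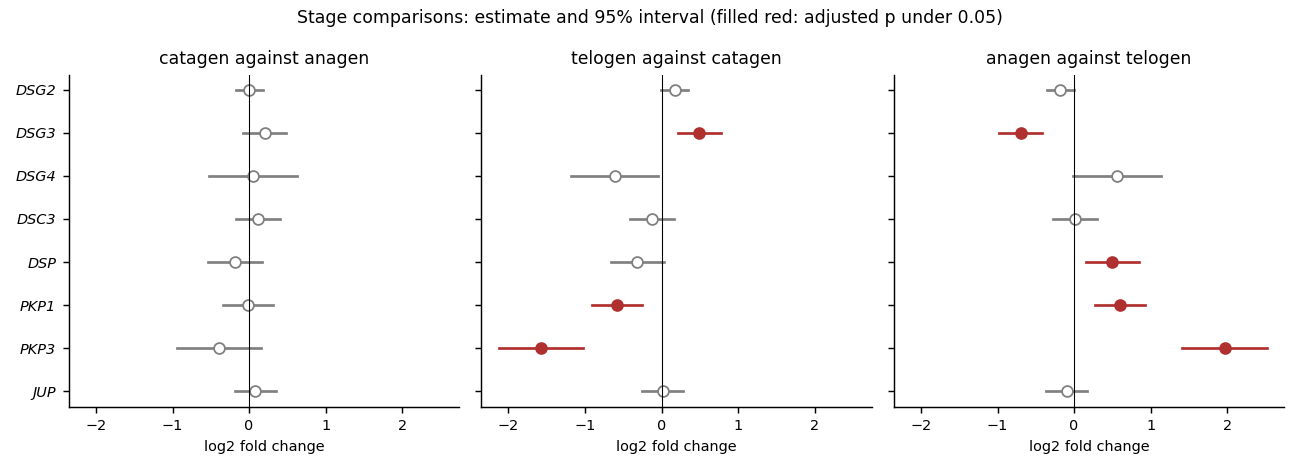
Log2 fold change (horizontal axis) and 95% interval from limma for the 8 desmosome genes in the 3 stage comparisons, 4 libraries per stage; filled red marks an adjusted p under 0.05 over all genes. In telogen against catagen PKP3 (-1.57), PKP1 (-0.58) and DSG3 (0.49) passed, DSP joined them in anagen against telogen (0.50), and no member passed in catagen against anagen.

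Set against all genes, the number of desmosome members that changed was unremarkable. In telogen against catagen 3 of 8 passed, 1 higher and 2 lower, where 43.6% of all tested genes passed (24.5% higher and 19.0% lower). The median fold change of the 8 was -0.22, beside 0.07 for all genes. Scaling every library to the same sum gave the same 1 higher and 2 lower, but shifted all calls to 4371 higher and 2058 lower, beside 3948 and 3063 as deposited. In anagen against telogen 4 of 8 passed, 3 higher and 1 lower, where 52.9% of all genes passed (23.7% higher and 29.2% lower), and the median was 0.26 beside -0.07 for all genes. The 2 comparisons share the 4 telogen libraries. In catagen against anagen 0 of 8 passed, against 0.0559% of all genes, namely 9 genes, with 2519 at an unadjusted p under 0.05 and none of the 8 among those. PKP3 had the largest difference there, -0.39 (95% interval -0.94 to 0.16, adjusted p = 0.444), followed by DSG3 at 0.20 (adjusted p = 0.439) and DSP at -0.19 (adjusted p = 0.574).

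Of the steps between neighbouring months, only those into and out of telogen held members that passed. In February against December PKP3 was the only member to pass, at -1.39 (SE 0.353, adjusted p = 0.0306), where 16.6% of all genes passed (8.90% higher and 7.69% lower). DSG3 (0.59, adjusted p = 0.0538) and PKP1 (-0.59, adjusted p = 0.0904) did not pass. The PKP3 call was lost without the December male, the December female, the February male or the February female. Each of these fits left 1 library in a month, and calls over all genes changed widely when single libraries were left out. The PKP3 estimate itself stayed between -1.45 and -1.33 in 17 alternatives. In May against March 3 of 8 passed, where 27.4% of all genes did (13.9% higher and 13.4% lower): PKP3 at 1.95 (SE 0.353, adjusted p = 0.00859), DSP at 0.71 (SE 0.211, adjusted p = 0.0341) and DSG3 at -0.61 (SE 0.185, adjusted p = 0.0363). Which members passed changed when 1 May or March library was left out, and calls over all genes changed widely too. Over 17 alternatives PKP3 ran from 1.33 to 2.57, DSP from 0.50 to 0.92 and DSG3 from -0.81 to -0.41. DSG4, at 0.67 with all libraries (adjusted p = 0.202), ran from -0.12 to 1.47, the latter without the March male. A month left with 1 library was assumed to vary like the others.

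No member passed between the other neighbouring months. The share of all genes that passed was 0.137% in September against May, 0.0186% in November against September, 0% in December against November (588 genes at an unadjusted p under 0.05) and 0.00621% in March against February. In these 4 steps the lowest unadjusted p among the members was that of DSP in September against May (-0.41, unadjusted p = 0.0801, adjusted p = 0.557). PKP3 gave -0.60 in December against November (adjusted p = 0.946), where the November male and female were at 122 and 207. Over all 6 months, the F test in limma called PKP3 (adjusted p = 0.00686) and DSG3 (adjusted p = 0.0278), 2 of 8, where 32.7% of all genes passed. PKP1 (adjusted p = 0.0702) and DSP (adjusted p = 0.116) did not. The DSG3 call was lost without the May male, the May female, the September female, the February male or the February female. DSG4, DSP and PKP1 gained a call without the March male, and PKP3 kept its call throughout. Each of these fits left 1 library in a month, and calls over all genes changed widely among them.

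Male against female, no member passed, where 0.0559% of all genes did (9 genes, with 1185 at an unadjusted p under 0.05). In the test of whether the sexes differed in their stage response, 0 of 8 passed, against 0.00621% of all genes. The lowest p among the members belonged to DSG4 (unadjusted p = 0.0589, adjusted p = 0.555).

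In order of level, the members formed the same tiers in anagen and catagen and closed up in telogen. DSP came first, DSC3, PKP1 and JUP followed, and DSG4, PKP3, DSG3 and DSG2 were lower. In anagen the libraries of DSC3 and PKP1, PKP1 and JUP, and DSG4 and PKP3 overlapped, and those of every other neighbouring pair did not. In catagen PKP1 and JUP, DSG4 and PKP3, and PKP3 and DSG3 overlapped. In telogen DSC3 overlapped with JUP and JUP with PKP1, and the 4 lowest, now DSG3, DSG4, PKP3 and DSG2, overlapped each with the next. DSG3 was thus below DSG4 and PKP3 in mean level in anagen and catagen, and above both in telogen.

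Within families, the make-up was described with the other members added. DSG1, the desmoglein of upper epidermal layers, took most of the summed desmoglein level, 72.5 ± 1.97% in anagen, 72.9 ± 1.44% in catagen and 71.4 ± 1.79% in telogen. DSG3 took 8.09 ± 0.294%, 8.61 ± 0.778% and 13.5 ± 2.997% in the 3 stages in that order, and DSG4 16.4 ± 1.97%, 15.6 ± 1.69% and 11.6 ± 3.58%. The summed desmoglein level was 1124 ± 80.5 in anagen, 1219 ± 57.0 in catagen and 1124 ± 150 in telogen, so the stage means of this total lay closer together than the telogen libraries did among themselves.

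The plakophilin total was different. It stood at 653 ± 21.6 in anagen, 619 ± 90.1 in catagen and 389 ± 91.0 in telogen. PKP3 took 26.1 ± 2.37%, 21.3 ± 4.40% and 11.3 ± 1.97% of it in the 3 stages, while PKP1 took 66.3 ± 1.48%, 69.9 ± 3.42% and 74.9 ± 1.44%. PKP2 and PKP4, plakophilins with broad expression beyond epidermis, did not pass in any of the 3 stage comparisons. PKP4 made up 5.65 ± 0.557% of the total in anagen, 6.51 ± 0.897% in catagen and 10.5 ± 1.95% in telogen.

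**Figure D3:**
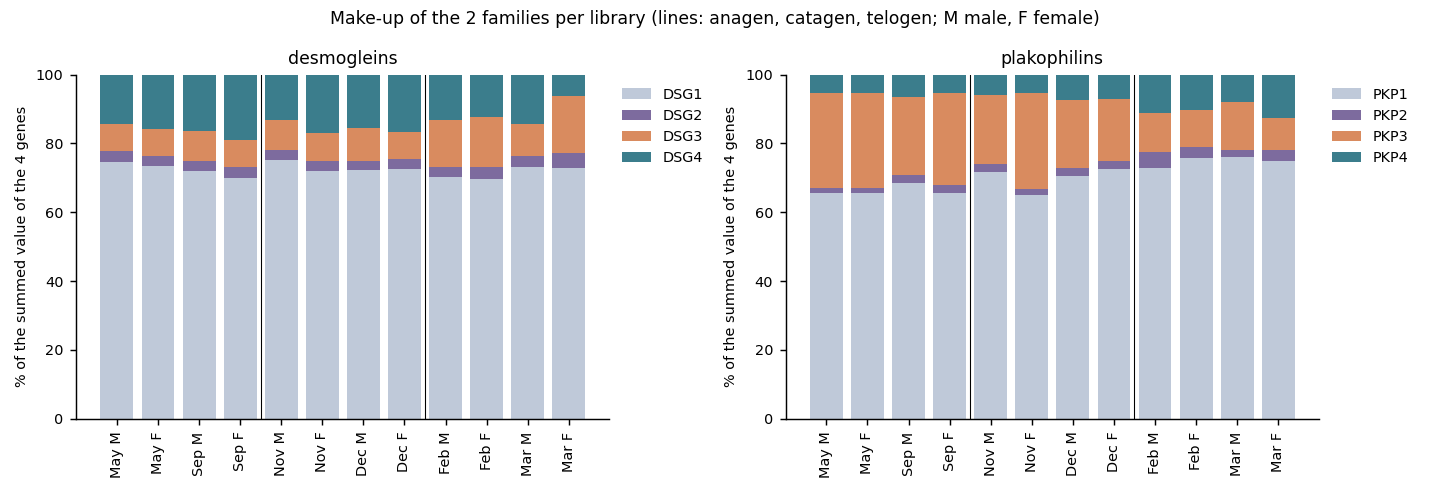
Share (%) of each gene in the summed deposited value of the 4 desmogleins (left) and the 4 plakophilins (right) in each of the 12 libraries, in cycle order with vertical lines between anagen, catagen and telogen and the male left of the female. PKP3 shrank to 9.29 to 14.0% of the plakophilin sum in telogen, against 17.9 to 27.8% in catagen, and DSG3 had 9.37 to 16.5% of the desmoglein sum in telogen, against 7.83 to 9.61% in catagen.

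Ratios between members were compared by two-sided exact permutation tests over libraries, 9 comparisons in all, with 0.0286 the smallest p that 4 against 4 libraries allow. The log2 ratio of PKP1 over PKP3 averaged 2.71 ± 0.235 in telogen and 1.72 ± 0.346 in catagen, with no overlap (exact permutation p = 0.0286, adjusted p = 0.0643). The ratio of DSG4 over DSG3 averaged 1.00 ± 0.178 in anagen and -0.26 ± 0.824 in telogen, again with no overlap (exact permutation p = 0.0286, adjusted p = 0.0643), and it was positive in every anagen and catagen library. In telogen it ran from -1.37 in the March female to 0.61 in the March male, which overlapped with catagen (0.58 to 1.09; exact permutation p = 0.0571, adjusted p = 0.0857). None of the 9 ratio comparisons passed after adjustment, 4 of them at the smallest p the libraries allow. With this adjustment none could pass unless most of the 9 reached that p, so the lack of calls cannot decide for single ratios.

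Several lists of cell type markers differed in summed level between stages. The summed level of 10 general epithelial genes was 1721 to 1979 in anagen, 1914 to 2178 in catagen and 2003 to 2253 in telogen, and none of these markers was at 0 in any library. The list did not move as one: in telogen against catagen 2 of its genes passed as higher and 2 as lower. TP63 averaged 194 ± 11.1 in anagen, 257 ± 33.5 in catagen and 504 ± 108 in telogen. EPCAM averaged 161 ± 13.4 in anagen, 173 ± 18.8 in catagen and 108 ± 4.13 in telogen. The summed inner root sheath markers (6 of 10 measured) were 16439 to 21105 in anagen, 12565 to 18987 in catagen and 3643 to 12398 in telogen. Hair shaft keratins (8 of 16 measured) summed to 1157 to 1405 in anagen, 977 to 1499 in catagen and 333 to 1010 in telogen. Of these 8, 5 passed as lower and 0 as higher in telogen against catagen. KRT39 averaged 169 ± 21.2 in catagen and 179 ± 70.4 in telogen, and KRT38 9.73 ± 1.00 and 12.2 ± 6.59. Suprabasal epidermis markers (8 of 11 measured) summed to 4249 to 6919 in anagen, 3457 to 5139 in catagen and 3615 to 7180 in telogen. Outer root sheath and basal markers (4 of 7 measured) summed to 12856 to 16427 in anagen, 10262 to 15390 in catagen and 6579 to 9407 in telogen. KRT5 and KRT14 made up most of that sum, and SOX9 of the same list went the other way, at 96.8 ± 11.7 in anagen, 117 ± 15.2 in catagen and 144 ± 14.3 in telogen. GATA3, in the inner root sheath list, was likewise higher in telogen than in catagen (0.55, adjusted p = 0.00274), while 3 of the 4 keratins there fell. T and myeloid cell markers (9 of 9) summed to 53.4 to 72.0 in anagen, 44.6 to 55.9 in catagen and 67.8 to 106 in telogen. Skeletal muscle markers (9 of 13 measured, 3 of them at 0 in at least 1 library) summed to 255 and 257 in the 2 May libraries, where DSP was highest, and to at most 26.6 in the other 10. Transcripts of 13 mitochondrial genes took 1.83 ± 0.413% of the summed value in anagen, 2.99 ± 0.629% in catagen and 9.25 ± 3.18% in telogen, with 4.63% in the March male and 11.8% in the March female. The part of these shifts in the changes of the desmosome genes was not tested, except for epithelial content. Relative to the mean log2 level of the 10 epithelial genes, PKP3 was lower in telogen than in catagen, with a log2 difference of -1.59 and no overlap (exact permutation p = 0.0286, adjusted p = 0.114), and 0 of 24 such comparisons passed after adjustment. As 0.0286 is the smallest p that 4 against 4 libraries allow, none could pass unless most of the 24 reached it. The count of 0 therefore cannot decide for single members. With libraries centred on the 10 epithelial genes in limma, an unplanned setting, the same numbers of members passed. They were 3 in telogen against catagen and 4 in anagen against telogen.

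The other 9 desmosome genes listed (DSG1, DSC1, PKP2, PKP4, PERP, CDSN, PPL, EVPL and PNN) gave 1 higher and 3 lower in telogen against catagen, with a median of -0.17. Beside this and the lists below, 24.5% of all tested genes were higher and 19.0% lower in that comparison. In anagen against telogen 23.7% of all tested genes were higher and 29.2% lower, so changed genes were common in any list. PERP, a tetraspan membrane protein needed for stable desmosomes in mouse epidermis, averaged 889 ± 140 in telogen and 1360 ± 133 in catagen (-0.62, SE 0.155, adjusted p = 0.00704), a call that was lost under quantile normalization (adjusted p = 0.0672). The plakins PPL (periplakin) and EVPL (envoplakin), which join desmosomes to the cornified envelope, fell together. PPL averaged 69.98 ± 16.2 in telogen and 137 ± 19.8 in catagen (-0.98, SE 0.157, adjusted p = 8.25e-04), and EVPL 21.1 ± 5.31 in telogen and 40.9 ± 7.18 in catagen (-0.94, SE 0.178, adjusted p = 0.00174). PNN (pinin), first described at desmosomes and also a nuclear RNA-processing protein, rose to 56.2 ± 8.21 in telogen, against 33.7 ± 5.17 in catagen (0.72, SE 0.128, adjusted p = 0.00125). DSG1 did not pass in any stage comparison, with 757 to 877 in anagen, 819 to 951 in catagen and 680 to 911 in telogen.

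The same list gave 4 higher and 2 lower in anagen against telogen, with a median of 0.03. PPL (1.22), EVPL (1.19) and PERP (0.56) were higher and PNN lower (-0.89), and PERP lost its call under quantile normalization and with averaged months (adjusted p up to 0.0935). CDSN (corneodesmosin), a glue of late keratinocyte junctions, averaged 419 ± 125 in anagen and 232 ± 52.2 in telogen (0.83, SE 0.257, adjusted p = 0.0160), a call lost without the May female, both May or both March libraries (adjusted p up to 0.188). DSC1, the desmocollin of upper layers, was lower in anagen (333 ± 35.6) than in telogen (403 ± 19.0), but its call (-0.28, adjusted p = 0.0465) was lost in 14 of 21 alternatives, with adjusted p up to 0.155.

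Genes of other cell junctions had mixed changes in these bulk libraries. Of 12 adherens junction genes 1 rose and 7 fell in telogen against catagen (median -0.28), where 24.5% of all tested genes rose and 19.0% fell. CTNNB1 (beta-catenin), which binds classical cadherins as JUP does, fell to 240 ± 52.1 in telogen, against 403 ± 64.3 in catagen (-0.75, SE 0.162, adjusted p = 0.00329), and kept its call in 21 of 21 alternatives. CDH1 (E-cadherin) was the 1 higher, 243 ± 10.3 in telogen and 204 ± 15.1 in catagen (0.25, SE 0.089, adjusted p = 0.0382), and lost its call in 12 of 21 alternatives (adjusted p up to 0.144). CTNND1 (-0.33) and CTNNA1 (-0.23), the p120 and alpha catenins, lost theirs in 10 and 16 of 21, with adjusted p up to 0.228 and 0.669. In anagen against telogen 6 were higher and 2 lower (median 0.39), with CTNNB1 (0.98, adjusted p = 4.84e-04), CTNND1 (0.53, adjusted p = 0.00247) and AJUBA, a LIM protein of these junctions (0.63, adjusted p = 3.29e-04), among the higher. CDH1 was lower in anagen (-0.34, adjusted p = 0.00681), a call lost without both May libraries and with averaged months (adjusted p up to 0.0575).

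Of 15 tight junction genes 2 rose and 3 fell in telogen against catagen (median -0.02). MARVELD2 (tricellulin) rose (0.56, SE 0.086, adjusted p = 6.77e-04), to 18.2 ± 1.48 in telogen against 12.02 ± 0.772 in catagen. MARVELD3 fell (-0.65, adjusted p = 0.0125), as did the claudin CLDN4 (-0.50, adjusted p = 0.0183), whose call was lost without the November female or the February male, under quantile normalization and with equal sums (adjusted p up to 0.101). The scaffold TJP1 (0.25) lost its call in 9 of 21 alternatives (adjusted p up to 0.130). Of 9 hemidesmosome genes, whose products fix basal cells to the basement membrane, 1 rose and 3 fell (median 0.04). PLEC (plectin) fell to 39.8 ± 5.999 in telogen, against 79.95 ± 13.5 in catagen (-0.99, SE 0.155, adjusted p = 7.40e-04), and CD151, a tetraspanin partner of integrins, to 74.3 ± 14.4 in telogen, against 144 ± 30.9 in catagen (-0.94, SE 0.154, adjusted p = 8.86e-04). The laminin-332 chains went opposite ways, LAMA3 higher (0.46, adjusted p = 0.00939) and LAMB3 lower (-0.75, adjusted p = 0.00607). Of 8 gap junction genes 1 rose and 1 fell (median -0.23). GJB6 (connexin 30, -0.75, adjusted p = 0.0225) lost its call without the November female, the February female or both March libraries (adjusted p up to 0.0691), and GJC1 (connexin 45, 0.32, adjusted p = 0.0435) in 14 of 21 alternatives (adjusted p up to 0.126).

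In anagen against telogen, tight junction genes gave 5 higher and 2 lower (median 0.08), hemidesmosome genes 3 higher and 2 lower (median 0.13) and gap junction genes 0 higher and 1 lower (median 0.28). CLDN4 (0.55) was higher and MARVELD2 (-0.54) and CLDN12 (-0.44) were lower. PLEC (1.23) and CD151 (1.11) were higher, and LAMA3 (-0.36) and ITGA6 (-0.33), the alpha chain of the hemidesmosomal integrin, lower. CLDN12 lost its call without both May libraries (adjusted p = 0.0565). LAMA3 lost it without either September library, the February female or the March female (adjusted p up to 0.0727), and ITGA6 without both May libraries, with averaged months and with centring on epithelial content (adjusted p up to 0.132).

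**Figure D4:**
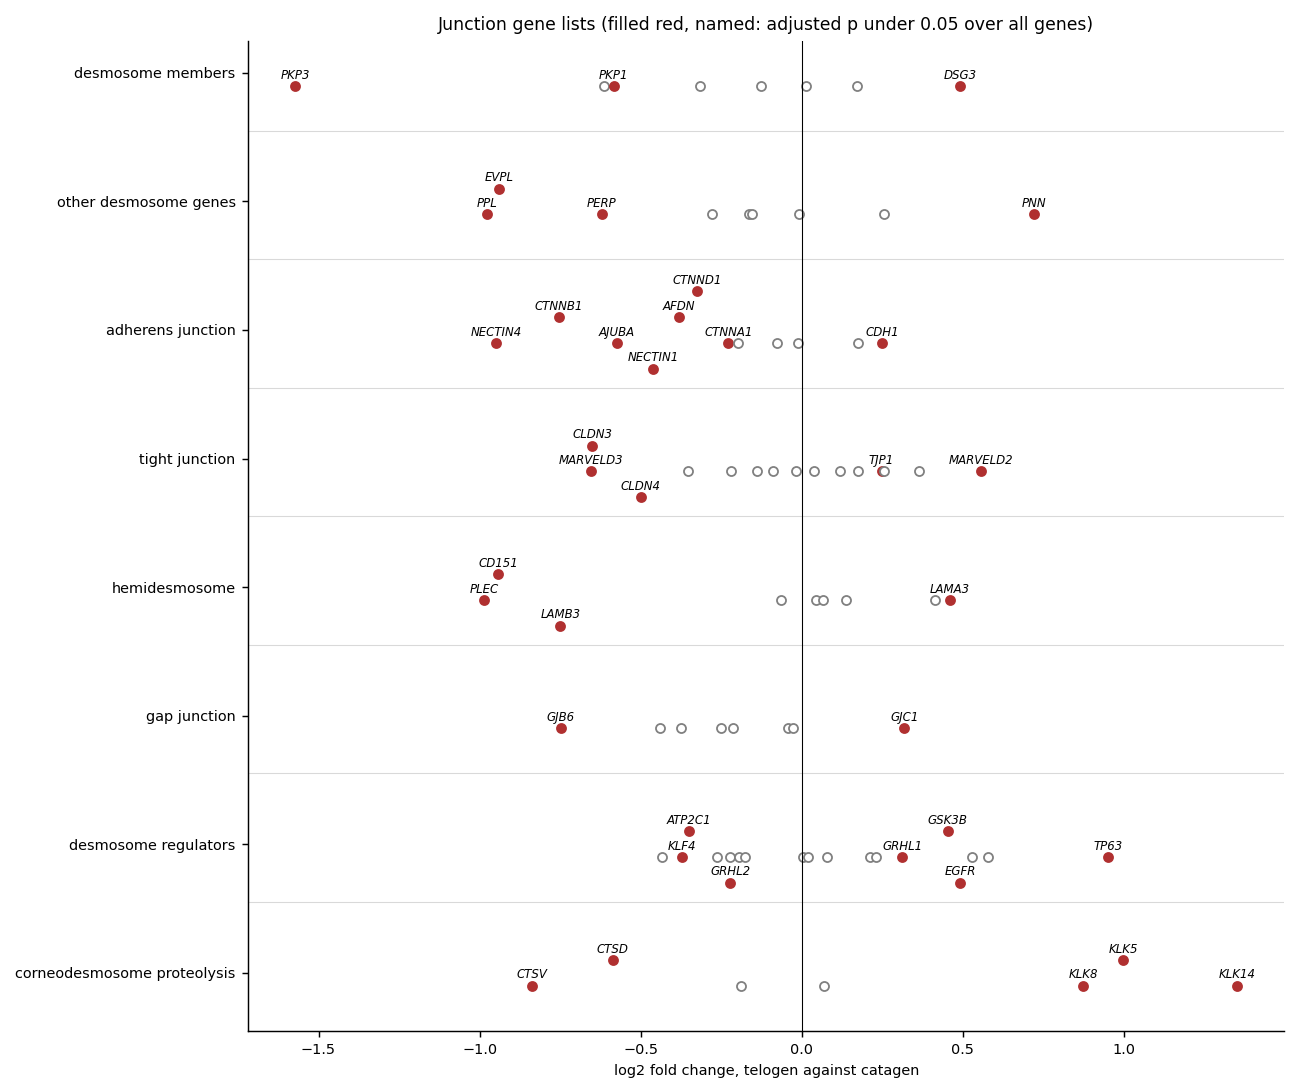
Log2 fold change in telogen against catagen (horizontal axis, 4 libraries per stage) of every tested gene of the desmosome members and 7 related lists, one row per list with points offset vertically only for legibility; filled red points are named and passed at an adjusted p under 0.05 over all genes. PKP3 (-1.57) lies farthest left of all genes drawn, and in each list points that passed lie on both sides of 0.

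Of 19 genes listed as regulators of desmosomes, 4 rose and 3 fell in telogen against catagen (median 0.02). TP63, the master factor of stratified epithelia and a regulator of desmosome genes, rose to 504 ± 108 in telogen, against 257 ± 33.5 in catagen (0.95, SE 0.156, adjusted p = 9.03e-04). TP63 is also in the list of epithelial genes used for centring. EGFR, whose signalling loosens desmosomes in cultured keratinocytes, rose to 141 ± 16.2 in telogen, against 100.05 ± 8.18 in catagen (0.49, adjusted p = 0.00296). GRHL1, a grainyhead-like factor known in mice to act on Dsg1, was higher (0.31, adjusted p = 0.0152), a call lost with averaged months (adjusted p = 0.0737). ATP2C1, the Golgi calcium pump mutated in Hailey-Hailey disease, in which keratinocytes come apart, was lower (-0.35, adjusted p = 0.0117), a call lost when libraries were scaled to equal sums (adjusted p = 0.0633). Among these regulators 3 were higher and 7 lower in anagen against telogen (median -0.03), with TP63 at -1.35 and EGFR at -0.49. ATP2A2, the calcium pump mutated in Darier disease, was higher at 0.32 (adjusted p = 0.00842), a call lost without both May libraries and with equal sums (adjusted p up to 0.0864).

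Of 10 listed genes that act on the late, cornified form of the desmosome, 7 were measured, all of them proteases, and 3 rose and 2 fell in telogen against catagen (median 0.07). The kallikrein KLK5 rose to 48.2 ± 16.1 in telogen, against 22.9 ± 2.79 in catagen (1.00, SE 0.210, adjusted p = 0.00294), and KLK8 was higher by 0.87 (adjusted p = 0.00308). CTSV (cathepsin V) fell to 352 ± 72.8 in telogen, against 623 ± 89.4 in catagen (-0.84, SE 0.184, adjusted p = 0.00369), and CTSD (cathepsin D) was lower, at -0.59 (adjusted p = 0.0116). Against telogen, anagen had 2 of these genes higher and 1 lower (median 0.27), CTSV at 1.10 and CTSD at 0.64 against KLK14 at -1.09. KLK8 was the one gene of all these lists that passed in catagen against anagen (-1.24, adjusted p = 0.0323), and it lost that call in 12 of 21 alternatives, with adjusted p up to 0.285.

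Profiles over the 12 libraries were also compared with those of 10661 genes with symbols and a mean of at least 5, by the root mean square difference of centred log2 values. The nearest profile to DSC3 was that of DSG1 (0.0574), followed by PTPN2 (0.0829) and ORMDL1 (0.0903). PKP3 was nearest to BICDL2 (0.0808), HES2 (0.124) and S100A14 (0.145), and DSG4 to GPRC5D (0.143), OTUB2 (0.145) and HEPHL1 (0.148). DSG3 lay nearest to RAB2B (0.0679), POT1 (0.0740) and RUFY2 (0.0759), DSP to FUZ (0.0894), AGAP1 (0.0943) and FAM160B2 (0.0945), and PKP1 to SMAD7 (0.0756), RNASEH1 (0.0801) and GNA12 (0.0808). The flat profiles of DSG2 and JUP were nearest to HEATR6 (0.0599) and GATAD2A (0.0632). Among the members, DSG2 and JUP (0.134) and DSP and PKP1 (0.194) were each other's nearest. The distance of DSG2 and JUP exceeded their own spreads over the 12 libraries (0.113 and 0.131), so it shows no shared pattern. That of DSP and PKP1 was below theirs (0.268 and 0.334). PKP3 was far from all other members, with PKP1 the nearest at 0.619. Of these 24 nearest genes, the 3 for each member, 21 were found again with a pseudocount of 0.1, 17 without the March male and 9 after quantile normalization.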

How the data were processed

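RNA of secondary hair follicles, isolated with the RNAiso Plus reagent, was read on an Illumina HiSeq instrument, per the labels. The authors deposited 1 signal value per gene and library in a column headed TPM. Reads were quantified with kallisto 0.46.1 and sleuth 0.30.0 was used, per the submitters' processing notes; the genome build is not given in the sources used here. The deposited values sum to 904623 to 1127797 per library, where TPM would give one sum, so they had been rescaled in a way not given here, and read depth is unknown. The 2 replicates of a month are its female (1) and male (2). The plan allowed for counts or a normalized unit, and the normalized branch was used.

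From these values, log2(value + 1) was tested in limma 3.58.1 (R 4.3.3, eBayes with trend) for the 16095 of 20326 genes at 1 or more in at least 2 libraries, all 12 libraries sharing one spread, with Benjamini-Hochberg adjustment. Symbols came from RefSeq ARS1.2 by gene ID (20294 matched). Members and gene lists were chosen with earlier results of these data known. Listed genes named are the 4 most abundant that passed per list and stage comparison, except 1 that is not reported here; named nearest profiles are the 3 closest. Any 2 libraries had equal values in at most 0.659% of genes with a mean of at least 1. The fit was tested on simulated data. Alternatives were quantile normalization, equal sums, no filter, a pseudocount of 0.1, the replicate block and averaged months. Each library, and both May libraries together, were also left out. Leaving out both March libraries and centring on epithelial content in limma were added after the data were seen. The ratio of DSC2 over DSC3 was not computed.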

Additional observations from a re-analysis of the deposited data

Results flagged for a closer look

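Over 33 groups of 4 libraries searched (each member and ratio in each stage), 2 held a library far from the other 3, where chance gives about 1 in 20 groups. Both were the September male in anagen. Its PKP3 level was 141, with 178 to 184 in the other 3 anagen libraries, a gap of 0.873 of the group's range. Its log2 ratio of PKP1 over PKP3 was 1.59, a gap of 0.866 of the range of the anagen libraries, and rests on the same PKP3 value. PKP3 kept its calls against telogen without the September male.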

How the results depend on the processing

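Of 1720 recomputed values of single members, 0 changed sign while past the threshold, 27 lost and 16 gained a call, and 76 others changed sign without passing. The number of members called stayed at 0 in catagen against anagen in each setting. It was 3 to 4 in telogen against catagen and 3 to 5 in anagen against telogen with 1 library left out. With 1 library left out it ran from 0 to 4 in February against December, from 0 to 5 in May against March and from 1 to 5 in the F test over months. The all-gene counts depended more on single libraries: February against December called 2671 genes, and 19 to 4467 with 1 library left out, and May against March 4402, and 264 to 5956. Replicate numbers mark sex, so the male minus female difference of each month was correlated across genes between months. Over 15 pairs of months this correlation ran from -0.255 to 0.442, with a median of 0.114 and 9 over 0.1. It does not settle whether same-numbered libraries come from the same animal. The replicate block left 3 members called in telogen against catagen (7074 genes in all, 7011 without it), 4 in anagen against telogen (8624, beside 8512), 1 in February against December, 3 in May against March and 0 in catagen against anagen. Depth is unknown, no interval for counting error can be given, and 2 libraries per month limit the month steps.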

Other observations

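LOC102184211, the protein-coding gene between DSC1 and DSC3 in the ARS1.2 neighbour order, has no name in the reference used, and it was singled out after its values were seen. It stood at 45.5 ± 6.05 in anagen, 43.6 ± 7.34 in catagen and 68.0 ± 18.4 in telogen (SD, n = 4 each). LOC108633772, next to DSG2 in that order, stood between 2.74 and 4.45 in the 12 libraries.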
